A study of Mus musculus with 6 samples.

Results

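The clustered histone genes are the 67 genes of the count table whose symbols mark them as H1, H2A, H2B, H3 or H4 genes of the histone clusters, among 57010 genes in all. Members were taken by a symbol pattern, without the linker histone of resting cells, the variant histones or the centromeric H3. The list itself was proposed with earlier results of these data known. The list held 6 H1, 18 H2A, 18 H2B, 12 H3 and 13 H4 genes, of which 54 lie on chromosome 13, 10 on chromosome 3, 2 on chromosome 11 and 1 on chromosome 6.

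The study compared monocytes, the precursors of bone-resorbing osteoclasts, from the bone marrow of the femur with monocytes from the bone marrow of the mandible of mice 1 year old. The mice were C57BL/6 and, per the study's methods, of the J substrain and of both sexes, and no treatment or engineered allele is named for either group. Monocytes were enriched by negative selection with a commercial kit, which removes labelled cells of other lineages and leaves whatever cells it does not label. RNA was sequenced in 3 femur libraries (S13, S15 and S18) and 3 mandible libraries (S16, S19 and S23). The labels do not say whether the libraries came from separate or pooled animals, so the spread between them may be technical.

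Histone proteins wrap DNA into nucleosomes, each of which holds H2A, H2B, H3 and H4 in equal numbers, while H1 binds the DNA between them. The clustered genes are known for being transcribed mainly in S phase, when new DNA needs new histones, and their messenger RNAs are the classic mRNAs of animal cells that end in a short stem-loop instead of a poly(A) tail. The stem-loop is bound by the stem-loop binding protein Slbp, and the end of the mRNA is cut with the help of the U7 small nuclear RNA. In bone marrow, high levels of these mRNAs are known from dividing progenitors, whereas mature blood cells have few.

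The stem-loop is shown first, because it is the feature that the clustered genes share beyond their names. It was searched as the consensus of the histone 3′ stem-loop, a pattern of 16 bases with some positions left free, in the GENCODE M21 transcripts (GRCm38), on the transcript strand, and found in 46 of the 67 members. The same pattern occurred in a transcript of 201 of 55450 genes, or 0.362%. The stretches of 6 members are printed 5′ to 3′ as DNA, with the 16 bases of the match in capitals.

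H1f3: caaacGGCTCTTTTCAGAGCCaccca
H2ac20: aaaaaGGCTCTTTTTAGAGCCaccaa
H2bc3: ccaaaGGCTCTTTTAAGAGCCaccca
H3c4: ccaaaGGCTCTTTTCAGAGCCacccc
H3c8: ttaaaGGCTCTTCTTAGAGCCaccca
H4c4: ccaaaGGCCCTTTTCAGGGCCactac

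The same 16 bases, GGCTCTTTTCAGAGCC, stood in 26 members, namely 3 H1, 10 H2A, 8 H2B and 5 H3 genes. None of the H4 genes carried them, and 7 H4 genes carried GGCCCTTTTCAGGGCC in their place, which no member of another class had. Another form, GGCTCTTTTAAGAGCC, stood in 6 members, among them H2bc3. H2ac20 and H3c8 each held a form found in no other member. The 21 members without a match had 2 of the 6 H1, 7 of the 18 H2A, 8 of the 18 H2B, 3 of the 12 H3 and 1 of the 13 H4 genes. A missing match says only that the pattern is not in the model. Where the match was found, a median of 91 bases followed it, and 18 members had models running over 200 bases beyond it.

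The bases upstream of the annotated start were shown for 4 members that the values below return to, 1 from each of H1, H2B, H3 and H4. They are the 250 bases before the start in RefSeq (GRCm38.p6), ahead of the transcribed gene, and capitals mark motifs on either strand. The TATA box was searched as TATAAA, which reads TTTATA on the other strand. The CCAAT box reads ATTGG on the other strand. The octamer was searched as ATTTGCAT, which reads ATGCAAAT on the other strand. H1f5 is on the minus strand at chr13:21780626-21780875, H2bc3 on the plus strand at chr13:23746484-23746733, H3c4 on the plus strand at chr13:23575513-23575762 and H4c12 on the minus strand at chr13:21750554-21750803.

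H1f5: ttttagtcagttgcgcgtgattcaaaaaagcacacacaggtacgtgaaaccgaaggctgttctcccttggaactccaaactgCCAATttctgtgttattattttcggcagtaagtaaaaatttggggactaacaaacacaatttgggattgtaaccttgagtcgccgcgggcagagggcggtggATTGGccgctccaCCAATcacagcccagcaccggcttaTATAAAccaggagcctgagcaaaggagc
H2bc3: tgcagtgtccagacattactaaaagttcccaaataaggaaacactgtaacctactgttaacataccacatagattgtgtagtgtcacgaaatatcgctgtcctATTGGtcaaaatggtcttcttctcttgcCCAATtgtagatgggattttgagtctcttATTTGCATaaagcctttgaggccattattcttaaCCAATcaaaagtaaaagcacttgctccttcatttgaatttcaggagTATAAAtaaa
H3c4: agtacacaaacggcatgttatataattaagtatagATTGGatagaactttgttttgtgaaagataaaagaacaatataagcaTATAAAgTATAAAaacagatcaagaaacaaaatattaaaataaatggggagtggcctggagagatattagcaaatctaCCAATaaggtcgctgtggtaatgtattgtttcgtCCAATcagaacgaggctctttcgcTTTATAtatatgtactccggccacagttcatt
H4c12: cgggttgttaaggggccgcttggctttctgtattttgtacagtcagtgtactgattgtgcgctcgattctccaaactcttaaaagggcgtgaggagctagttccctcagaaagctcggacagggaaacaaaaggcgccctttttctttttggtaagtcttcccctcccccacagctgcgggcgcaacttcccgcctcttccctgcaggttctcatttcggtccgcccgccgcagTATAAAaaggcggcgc

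Motifs were counted in windows of 300 bases, from 250 before to 50 after the start, of which RefSeq gave 59 for 58 members. CCAAT was in 86.44% of these windows and in 37.41% of 32851 windows of all genes. It was in every H1, H2A, H2B and H3 window, and in 3 of the 11 H4 windows. TATAAA was in 57.63% of the members' windows against 13.62% of all. ATTTGCAT, the octamer bound by POU factors, was in 6 of the 17 H2A and 7 of the 15 H2B windows and in none of the H1, H3 and H4 windows, against 1.735% of all windows. Windows of neighbouring H2A and H2B genes on opposite strands can overlap, so the same site can be counted for both. The octamers of H2ac1, H2ac8 and H2ac12 are those of H2bc1, H2bc8 and H2bc12 read on the other strand. CCAAT and TATAAA sites can be counted for both genes in the same way.

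The libraries held 15718782 to 25371474 counts. Levels are given as TMM-scaled CPM on the usual scale. Here the counts of a gene are divided by the library's counts over the tested genes times its TMM factor. Between genes, levels are given as CPM per kilobase of the length in the count table. Members were called lower at a Benjamini-Hochberg adjusted p under 0.05 in edgeR and a fold of at least 2, and log2 fold changes are mandible over femur with a standard error. The list was proposed with results of this comparison known, so the members' own differences between the groups are a description and not a test. The S23 library stood apart by Xist, the RNA of the inactive X chromosome, with 1441 CPM against 0 to 0.553 CPM in the other libraries. The labels do not give the sex of a library. By Xist, female cells were seen in this mandible library and in no femur library, so sex was not balanced between the groups. The part of sex in the differences was not tested, and values without S23 are given below. 18S ribosomal RNA took 4.81% to 12.2% of counts. The 12 monocyte markers were all detected, and summed to 8568 to 15020 CPM in femur libraries and 7253 to 12680 CPM in mandible libraries.

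Clustered histone transcripts summed to 28211 CPM in S13, 13339 CPM in S15 and 21032 CPM in S18. In the mandible they summed to 6891 CPM in S16, 6792 CPM in S19 and 6373 CPM in S23. The lowest femur library was thus above the highest mandible library, and the mean was 20860 ± 7438 CPM (SD, n = 3) in the femur and 6685 ± 275 CPM (SD, n = 3) in the mandible, a femur to mandible fold of 3.12. The femur libraries spread 2.12-fold from lowest to highest, and the mandible libraries 1.08-fold. Members took 2.545%, 1.462% and 1.876% of all counts in S13, S15 and S18, and 0.669% to 0.709% in the mandible libraries.

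**Figure D1:**
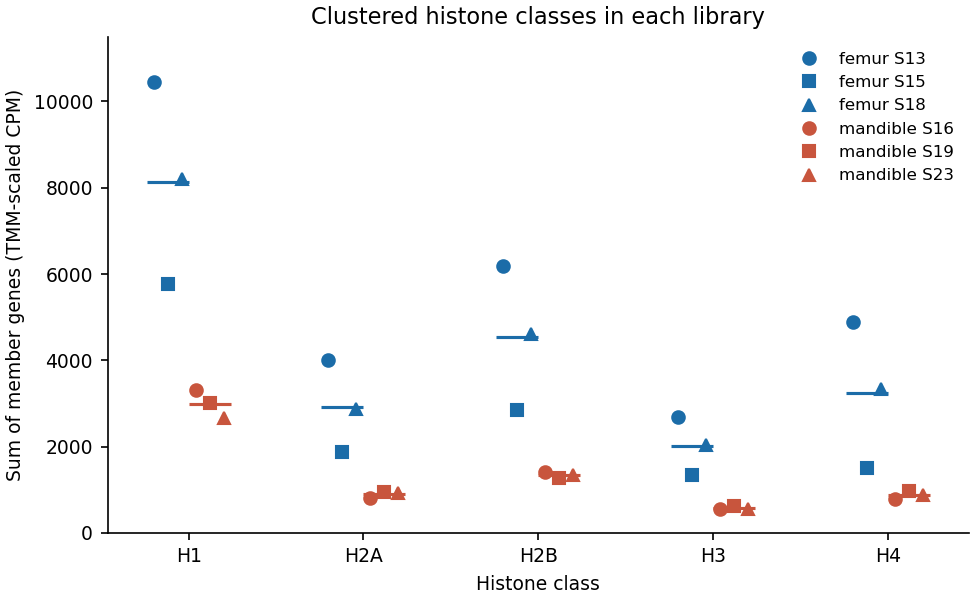
Summed TMM-scaled CPM of the members of each histone class (x axis) in each library, with 3 femur libraries in blue, 3 mandible libraries in red and the group mean as a line. In every class the lowest femur library, S15, lies above all mandible libraries, and the femur libraries are the more scattered.

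Each of the 5 classes was lower in every mandible library than in every femur library. The H1 class, the linker histones, summed to 10440, 5762 and 8211 CPM in S13, S15 and S18 and to 3318, 3004 and 2667 CPM in S16, S19 and S23. Its mean was 8136 ± 2338 CPM in femur libraries and 2996 ± 325 CPM in mandible libraries (SD, n = 3 each), a fold of 2.72. The H4 class summed to 4895, 1510 and 3324 CPM in femur libraries and to 783, 960 and 885 CPM in mandible libraries, a fold of 3.70. The classes of the other core histones lay between these, with a fold of 3.25 for H2A, 3.39 for H2B and 3.52 for H3.

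H1 was the class with the smallest fold whichever library was left out. H4 had the largest fold in 5 of those 6 comparisons, and without S13 the log2 ratio was -1.46 for the H4 class sum and -1.55 for the H3 class sum. The sum of H4 over that of H1 was 0.469, 0.262 and 0.405 in the femur libraries and 0.236, 0.320 and 0.332 in the mandible libraries, so the groups overlapped through S15. The sum of the core classes over H1 was 1.70, 1.31 and 1.56 in the femur and 1.08, 1.26 and 1.39 in the mandible, also with an overlap. H2B and H3 took slightly smaller shares of the member counts in the mandible without overlap, at 21.4% to 21.9% against 18.8% to 21% for H2B and 9.55% to 10% against 8.11% to 9.03% for H3. The shares of H1, H2A and H4 overlapped between the groups.

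Per kilobase, the order of the classes was another one, and it depends on the lengths of the gene models. Of the members with a stem-loop, 18 had models running over 200 bases beyond it, among them H1f2, H1f3 and H1f4. H2B had the highest sum in the femur, 7498 ± 2820 CPM per kilobase, and H3 the lowest, 3057 ± 1075 CPM per kilobase (SD, n = 3). In the mandible H2B was again highest with 2229 ± 143 CPM per kilobase and H3 lowest with 857 ± 32.7 CPM per kilobase. The means of H2A, H1 and H4 in the femur were 5967, 5292 and 5205 CPM per kilobase. In S13, S15 and S18, H2A had 8116, 3809 and 5977 CPM per kilobase, above H1 and H4 in each library. H1 had 6790, 3694 and 5392 CPM per kilobase there and H4 7767, 2374 and 5473, so the order of H1 and H4 changed between libraries.

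**Figure D2:**
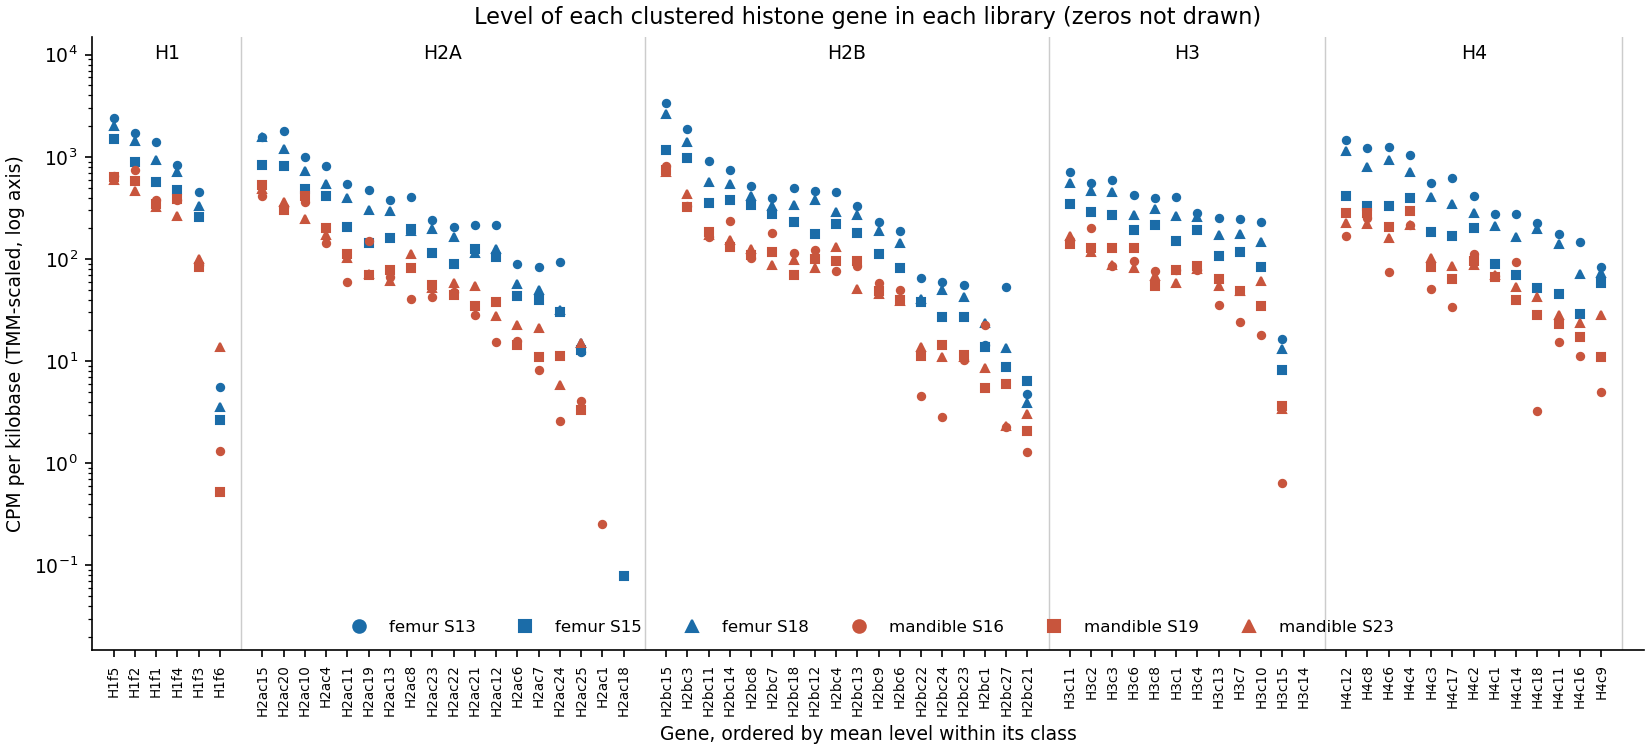
Level of each member in each library as TMM-scaled CPM per kilobase on a log axis, with members grouped by class and ordered by mean level, and with femur libraries in blue and mandible libraries in red. Levels run from H2bc15, at a mean of 1576 CPM per kilobase, down to genes with next to no counts, and at most genes the blue points lie above the red ones.

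Levels within the list ranged from 3.57 to 1576 CPM per kilobase over the 64 members that passed the expression filter, and 44 of the 67 members had a mean of at least 100 CPM per kilobase. The 10 highest members held 49.6% of the summed CPM per kilobase. H2bc15 and H1f5 were the only members above 1000 CPM per kilobase. This ranking depends on the model lengths, which include the bases beyond the stem-loop. These were 4884 bases in H1f3, 1153 in H1f4 and 840 in H1f2, and levels over the length up to the stem-loop were not computed. The 3 members that did not pass were H2ac1, a testis H2A gene, with at most 2 counts in a library, H2ac18 with at most 1 count, and H3c14, which had 0 counts in every library. No fold is given for them. Every 50-base window of H3c14, the length of the study's reads, also occurs in another gene, as do 89.4% of the windows of H2ac18. Shared windows did not always go with few counts, since H2ac19, with 100% of its windows shared with H2ac18, had 665 to 4550 counts in a library. How such reads were assigned is not given in the sources used here.

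Of the 64 tested members, 52 were called lower in the mandible and 0 higher, where 1.30% of the 18114 tested genes were called lower and 3.88% higher. The 52 members were 22.0% of the 236 genes called lower and 77.6% of the list. The mandible libraries all lay below the femur libraries at 59 members, against 11.5% of all tested genes. The median log2 fold change was -1.82 over the members, with a range from -2.98 to 0.39, and -0.04 over all tested genes. With S15 left out the count called was 59, and it was 24 without S13, 34 without S18, 33 without S16, 13 without S19 and 36 without S23, while the median stayed between -1.52 and -2.10.

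**Figure D3:**
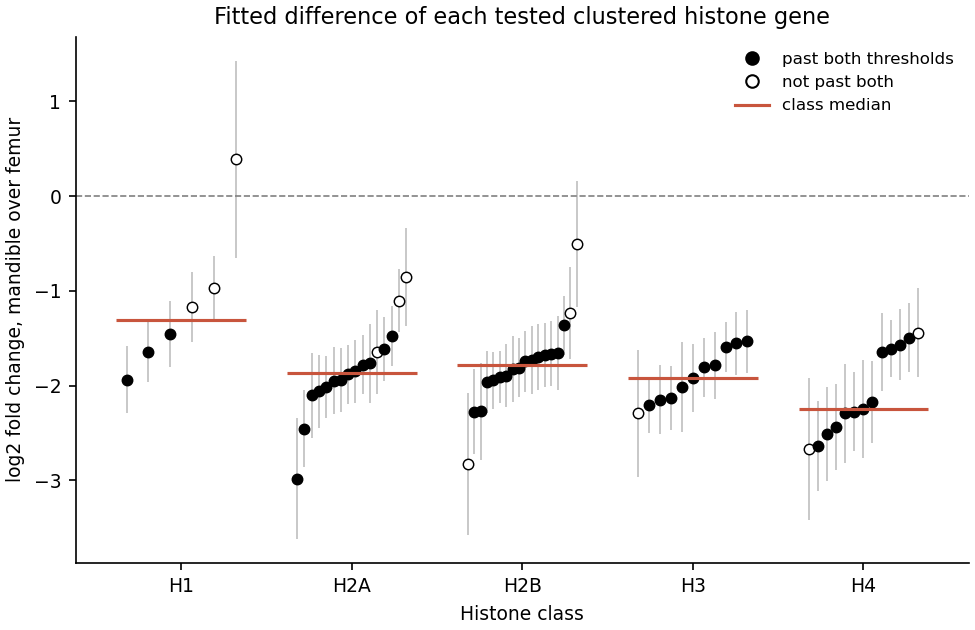
Log2 fold change, mandible over femur, of each of the 64 tested members by histone class, with 1 standard error as a vertical line, filled points for members past both thresholds and a red line at the class median. All members but H1f6 lie below 0, and the medians run from -1.31 for H1 to -2.25 for H4.

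Among the linker histones, 3 of 6 were called lower, and the median log2 fold change was -1.31. H1f3, whose model of 7425 bases is the longest of the list (chr13:23553262-23560686, plus strand), had the highest CPM, at 3344, 1910 and 2439 CPM in S13, S15 and S18 and 649, 619 and 738 CPM in S16, S19 and S23. Its femur libraries lay well above the mandible libraries, with a log2 fold change of -1.94 ± 0.35 (SE). H1f2 and H1f4, the widespread somatic linker histones, had smaller differences. H1f2 measured 2673, 1398 and 2234 CPM in femur libraries and 1170, 912 and 722 CPM in mandible libraries, and its log2 fold change of -1.17 ± 0.37 was not called. H1f4 had -0.97 ± 0.34 and was not called either, and 32% of its windows are shared, most of them with H2bc6, which overlaps it on the same strand. H1f5, shown above with its upstream bases, had 1781, 1105 and 1481 CPM in femur libraries and 484, 474 and 442 CPM in mandible libraries, with a log2 fold change of -1.64 ± 0.32 and no shared window. H1f1 was close to it, with -1.45 ± 0.35.

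H1f6, the linker histone of the testis, was the exception of the list. It measured 5.08, 2.44 and 3.23 CPM in the femur, 1.20 and 0.475 CPM in S16 and S19, and 12.4 CPM in S23, the library with Xist. The groups overlapped, and its log2 fold change of 0.39 ± 1.04 became -2.14 without S23 and -0.92 in limma-voom.

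For H2A, 13 of the 16 tested genes were called lower, with a median of -1.87. H2ac20, in the chromosome 3 cluster, measured 934, 419 and 617 CPM in femur libraries and 168, 158 and 188 CPM in mandible libraries, a log2 fold change of -1.94 ± 0.34. H2ac15 had the highest level of the class per kilobase, 902 CPM per kilobase, and a log2 fold change of -1.47 ± 0.32. H2ac10 had -1.10 ± 0.33 and was not called. The largest fold of the list belonged to the low gene H2ac24, with 45.4, 14.7 and 15.4 CPM in femur libraries and 1.25, 5.46 and 2.80 CPM in mandible libraries, at -2.98 ± 0.64. It shares 93.1% of its windows with other genes, so its level depends on how such reads were counted. H2ac12 had -2.46 ± 0.41 with 90.7% shared. H2ac25, on chromosome 11, had 26.6, 27.6 and 32.1 CPM in femur libraries and 8.76, 7.07 and 32 CPM in mandible libraries, and S23 lay within the femur range. All 18 H2A genes are overlapped by another annotated gene in GENCODE M21.

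For H2B, 15 of 18 genes were called lower, with a median of -1.78. H2bc15 measured 1294, 445 and 995 CPM in femur libraries and 313, 286 and 270 CPM in mandible libraries, a log2 fold change of -1.65 ± 0.39, with 86.4% of its windows shared. H2bc3 measured 950, 499 and 702 CPM in femur libraries and 167, 165 and 221 CPM in mandible libraries, a log2 fold change of -1.96 ± 0.33. The femur values lay apart from the mandible values at both. H2bc6 had -1.70 ± 0.34, and H2bc22 had -2.28 ± 0.45. H2bc27, on chromosome 11, had -2.83 ± 0.75 and was not called, with 32.6, 5.39 and 8.26 CPM in the femur against 1.40 to 3.66 CPM in mandible libraries. H2bc1, the testis H2B gene, had 5.58, 5.25 and 9.15 CPM in femur libraries and 8.66, 2.09 and 3.32 CPM in mandible libraries, so that the groups overlapped at a log2 fold change of -0.51 ± 0.66.

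For H3, 10 of the 11 tested genes were called lower, with a median of -1.92. H3c4, printed above, had the most counts of the class, at 352, 243 and 319 CPM in femur libraries and 98.0, 107 and 98.8 CPM in mandible libraries, a log2 fold change of -1.59 ± 0.26. H3c2 had -1.55 ± 0.33, and H3c6 had -1.53 ± 0.33. H3c3 measured 375, 171 and 284 CPM in femur libraries and 53.8, 80.1 and 55.5 CPM in mandible libraries, a log2 fold change of -2.13 ± 0.34. H3c8, which carries the stem-loop form found in no other member, had -2.21 ± 0.30. H3c15 had 16.8, 8.43 and 13.4 CPM in femur libraries and 0.651, 3.75 and 3.49 CPM in mandible libraries, and its log2 fold change of -2.29 ± 0.67 was not called.

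For H4, 11 of 13 genes were called lower, and the median of -2.25 was the lowest of the classes. H4c4 measured 1193, 451 and 818 CPM in femur libraries and 246, 340 and 245 CPM in mandible libraries, a log2 fold change of -1.57 ± 0.38. H4c12, printed above without a CCAAT, had the highest level of the class per kilobase, 619 CPM per kilobase, and measured 462, 129 and 358 CPM in femur libraries and 52.1, 88.7 and 69.7 CPM in mandible libraries, a log2 fold change of -2.17 ± 0.43. At both, S15 was nearer to the mandible libraries than to S13. H4c8 had -1.65 ± 0.41. H4c6 had -2.51 ± 0.50, H4c17 -2.64 ± 0.48, H4c11 -2.43 ± 0.46, H4c9 -2.29 ± 0.52 and H4c3 -2.27 ± 0.42. H4c18 had -2.67 ± 0.75 and was not called. H4c14 overlapped between the groups, since S16 with 153 CPM lay above S15 with 114 CPM, and its log2 fold change was -1.44 ± 0.47.

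The order of the libraries was shared by nearly all members. S13 was the highest femur library at 60 of the 64 tested members and S15 the lowest at 60. In the mandible no library held such a place, and S16 was lowest at 31 members, S23 at 18 and S19 at 15. S15 was still above every mandible library at 59 members.

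Some members lie head to head. In 13 pairs the starts of divergent members lay under 1000 bases apart, 12 of them an H2A with an H2B gene and 1 H2bc9 with H3c7. Both genes were tested in 12 pairs, whose log2 fold changes differed by a median of 0.304, with 7 pairs under 0.5, and their levels could be far apart, as for H2ac20 with 796 and H2bc21 with 3.57 CPM per kilobase. The difference between members that are not neighbours was not computed, so these values do not show that neighbours are more alike than other members. H2ac15 and H2bc15, whose starts are 296 bases apart, had -1.47 and -1.65. The most unlike pair was H2bc7 with -1.36 and H2ac7 with -2.10, a difference of 0.738. On chromosome 13, 47 of 53 tested members were called lower with a median of -1.81, and on chromosome 3, 4 of 8 with a median of -1.84. The pair on chromosome 11, H2ac25 and H2bc27, was not called, and H4c16 on chromosome 6 was called at -2.25 ± 0.52.

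Values were alike for members with a stem-loop match in the gene model and those without a match. Of 44 tested members with the stem-loop in the model, 35 were called lower with a median of -1.87, and of 20 without it, 17 with a median of -1.77. With at most 200 bases after the stem-loop the median was -1.91, and with more it was -1.81. Members with at least 50% of their windows shared had a median of -1.85, and those with under 20% shared had a median of -1.64, with 9 of 13 called. The 32 members with the higher levels per kilobase had a median of -1.71, and the 32 with the lower levels -1.93.

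Over all genes, the log2 fold change moved with gene length. The shortest 10% of the tested genes, with lengths of at most 787 bases, had a median log2 fold change of -0.65, and 5.30% of them were called lower. The longest 10% had a median of 0.23. Of the members, 44 were in the shortest 10%, and 39 of these were called lower with a median of -1.89, making up 39 of the 96 calls there. The 20 longer members had a median of -1.68 with 13 called lower, where 0.859% of the 16301 longer genes were called lower. With a length trend over all genes removed, 16 members were called lower, their median was -1.12 and that of all genes -0.18. The part of gene length in the members' differences was not tested further.

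**Figure D4:**
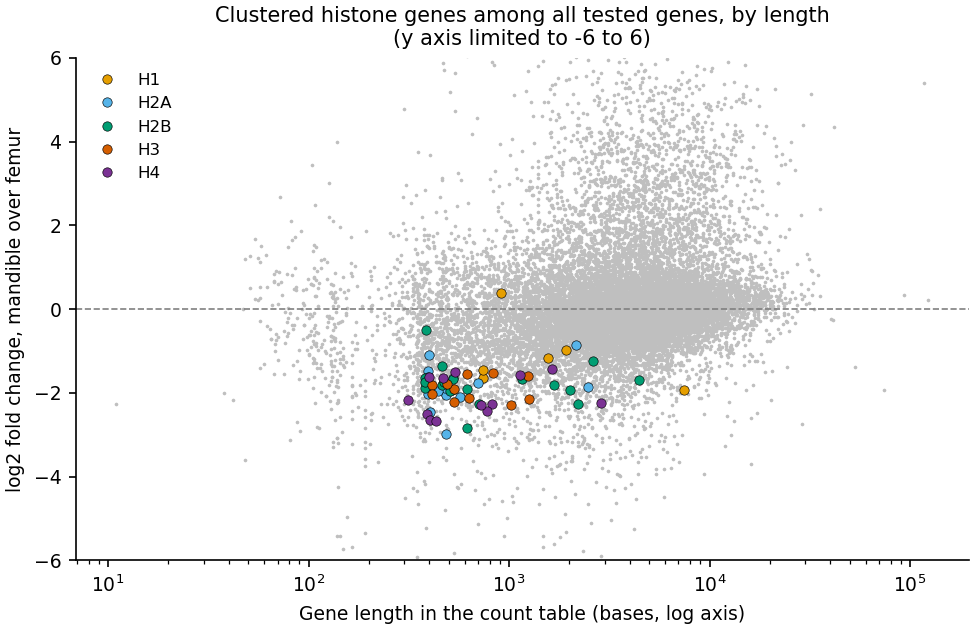
Log2 fold change, mandible over femur, against gene length in the count table on a log axis, for all tested genes in grey and the 64 tested members in the colour of their class. Members lie below most grey points of like length, both at the short end and at H1f3 with 7425 bases.

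RNAs of other kinds were set beside the histone mRNAs. Replication-independent histones are mostly made outside S phase too, from polyadenylated mRNAs, although the list also holds H2ax, which has a stem-loop mRNA as well, and Cenpa, the centromeric H3 made late in the cell cycle. By edgeR 0 of the 11 genes were called, where 1.30% of all tested genes were called lower and 3.88% higher. Of the 11, 7 had an unadjusted p under 0.05, against 16.4% of all tested genes, and their median log2 fold change was -0.71. H3f3a, which encodes H3.3, had 682, 350 and 541 CPM in femur libraries and 125, 291 and 250.7 CPM in mandible libraries, at -1.24 ± 0.38 (adjusted p = 0.097). H3f3b, which encodes the same protein, had -0.71 ± 0.29 (adjusted p = 0.24). H2ax had -1.10 ± 0.40 (adjusted p = 0.17) and Cenpa -0.96 ± 0.26 (adjusted p = 0.064). Macroh2a1 with 0.07 ± 0.31, a value that turned below 0 without S15 or S16 or with the length trend removed, and H1f0 with 0.08 ± 0.26 were near 0. The ratio of the clustered to the replication-independent sum was 8.87, 6.14 and 7.43 in S13, S15 and S18 and 3.94, 3.79 and 3.90 in S16, S19 and S23, without overlap.

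Genes that act on the clustered histone genes and their mRNAs were set beside all tested genes, of which 1.30% were called lower and 3.88% higher. At these shares, lists of 21 and 18 genes are too short for a lack of calls to show that they were unchanged. Of 21 genes for transcription and 3′ end processing, 0 were called by edgeR. Of them 0 had an unadjusted p under 0.05, against 16.4% of all tested genes. Their median log2 fold change was -0.09, with a range from -1.26 to 0.18. The lowest was Zfp473, which takes part in histone 3′ end processing, at -1.26 ± 0.86 with every mandible library below every femur library, followed by Lsm1 at -0.86 ± 0.41 and the U7 protein Lsm10 at -0.62 ± 0.46. Slbp measured 134, 78.9 and 116 CPM in femur libraries and 112, 97.5 and 50.9 CPM in mandible libraries, with an overlap and a log2 fold change of -0.34 ± 0.33 (adjusted p = 0.72). Srrt, which links the cap to 3′ end processing, had -0.41 ± 0.32, and Tut7, which adds uridines to RNA ends, 0.10 ± 0.27, below 0 without S18 and with the length trend removed. Npat, the cofactor that turns on these genes in S phase, had 0.10 ± 0.29. Of 18 histone chaperones, 0 were called and 1 had an unadjusted p under 0.05, with a median of -0.09, a value of -0.37 ± 0.43 for Npm1 and one of 0.21 ± 0.29 for Atrx, which was -0.59 with the length trend removed.

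For DNA replication, 3 of 37 tested genes were called lower, against 1.30% of all tested genes. By edgeR 14 of the 37 had an unadjusted p under 0.05, against 16.4% of all tested genes, and the median log2 fold change was -0.65. The list summed to 4492, 2765 and 3830 CPM in femur libraries and 2948, 2835 and 1678 CPM in mandible libraries, with an overlap. Rfc4, a subunit of the clamp loader, fell by 1.63 on the log2 scale (adjusted p = 0.037), Dut, which removes dUTP, fell by 1.47 (adjusted p = 0.046), and Cdk2, the S phase kinase, fell by 1.04 (adjusted p = 0.032) in edgeR. The helicase subunits Mcm3 and Mcm6 had -0.12 ± 0.36 and -0.65 ± 0.40, and the value of Mcm3 was above 0 without S13 or without S23. The ratio of the histone sum to that of the replication genes was 6.28, 4.82 and 5.49 in the femur and 2.34, 2.40 and 3.80 in the mandible, without overlap.

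For mitosis, 2 of 20 genes were called lower, against 1.30% of all tested genes, and the median log2 fold change was -0.36. The 2 were Cdk1, the mitotic kinase, which fell by 1.20 (adjusted p = 0.030), and Aurka, which fell by 1.07 on the log2 scale (adjusted p = 0.037) in edgeR. Mki67, the usual marker of dividing cells, measured 1350, 1398 and 1133 CPM in femur libraries and 1470, 1176 and 1047 CPM in mandible libraries, at -0.07 ± 0.31 (adjusted p = 0.96), or 0.01 without normalization factors. Top2a had -0.29 ± 0.33. The ratio of the histone sum to the mitosis sum was 6.28, 3.18 and 5.13 in the femur and 1.58, 1.92 and 2.31 in the mandible. Where cells of several kinds are sequenced together, fewer dividing cells and less histone RNA per cell cannot be told apart.

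RNAs without a poly(A) tail were a list of 16 small RNAs, of which 9 were tested and 4 were listed at 0 in every library. Of the 9, 2 were called lower, against 1.30% of all tested genes, and 3 lay above 0, and the median log2 fold change was -0.61. Rn7sk, the 7SK RNA that holds back transcription elongation, measured 11960, 3131 and 7574 CPM in femur libraries and 803, 1568 and 2320 CPM in mandible libraries, and fell by 2.27 on the log2 scale (edgeR adjusted p = 0.044). Rn7s2, an RNA of the signal recognition particle, fell by 2.65 (edgeR adjusted p = 0.049). The other 7 tested RNAs were not called, and Vaultrc5, a vault RNA, had 1.95 ± 0.80. The summed list, most of it Rn7sk, was 13170, 3310 and 8231 CPM in femur libraries and 857, 1731 and 2567 CPM in mandible libraries. The ratio of the histone sum to it was 2.14, 4.03 and 2.56 in the femur and 8.04, 3.92 and 2.48 in the mandible, so that the groups overlapped, as they did not in the ratios to the other lists above. From highest to lowest, this sum had the order S13, S18, S15 in the femur, as had the clustered histones. The sums of the replication-independent histone, histone chaperone, DNA replication, neutrophil precursor, erythroid, B cell precursor and T and NK cell lists had this femur order too. The remaining lists had other orders, so it was not particular to the histones. In the mandible it had the order S23, S19, S16, the reverse of that of the clustered histones. How the libraries were made, by poly(A) selection or by ribosomal RNA removal, is not given in the sources used here, and the part of this in the histone difference was not tested.

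**Figure D5:**
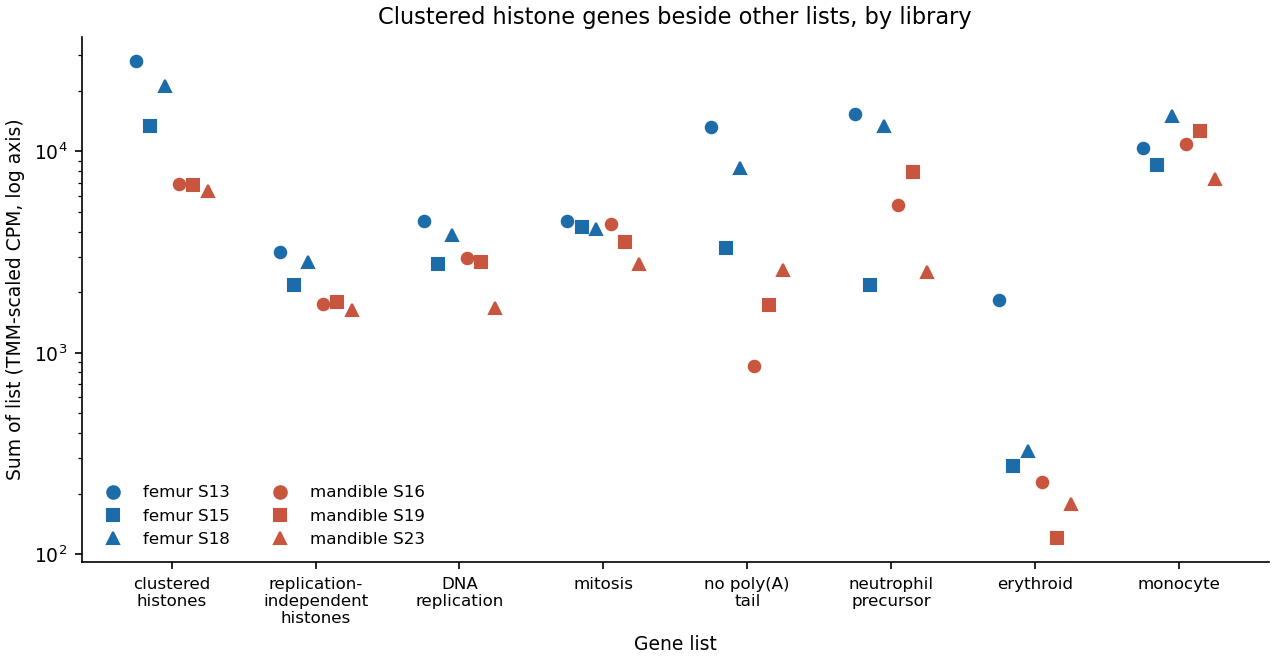
Summed TMM-scaled CPM, on a log axis, of the clustered histones and of 7 other gene lists in each library, with femur libraries in blue and mandible libraries in red. The clustered histones, the replication-independent histones and the RNAs without a poly(A) tail separate the groups, as do the erythroid markers, whereas the DNA replication, mitosis, neutrophil precursor and monocyte sums overlap.

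Marker lists of other cells differed between the groups as well. Over all tested genes, 1.30% were called lower and 3.88% higher, and 16.4% had an unadjusted p under 0.05 in edgeR. The 12 erythroid markers were all detected, 12 lay below 0 and 4 were called lower, with a median log2 fold change of -2.16. By edgeR 10 of them had an unadjusted p under 0.05, against 16.4% of all tested genes. They summed to 1821, 273 and 325 CPM in femur libraries and 228, 120 and 178 CPM in mandible libraries, so that S13 stood far above the rest. Hba-a1 fell by 2.98 on the log2 scale (edgeR adjusted p = 0.030) and Hba-a2 by 2.68 (edgeR adjusted p = 0.025), and Slc4a1, the anion exchanger of red cells, had -1.68 ± 0.69 and 0.04 without S13. The 10 neutrophil precursor markers were all detected, 10 lay below 0 and 1 was called lower, with a median log2 fold change of -1.53. By edgeR 7 of them had an unadjusted p under 0.05. They summed to 15390, 2171 and 13390 CPM in femur libraries and to 5393, 7886 and 2509 CPM in mandible libraries, with S15 the lowest of all libraries. Ms4a3 fell by 2.41 (edgeR adjusted p = 0.029), and the granule genes Ngp and Ltf had -0.58 ± 0.70 and -0.24 ± 0.68, the latter above 0 without S13, without S23 or in limma-voom. Of the 10 megakaryocyte and platelet markers, 9 were tested and 8 called lower, with a median log2 fold change of -3.16. They summed to 804 to 1265 CPM in femur libraries and 154 to 218 CPM in mandible libraries. The 12 mesenchymal and tooth-forming markers were all called higher, and they summed to 125 to 176 CPM in femur libraries and 14970 to 26690 CPM in mandible libraries. Among the other lists, 1 of 7 tested B cell precursor markers was called higher, while 4 lay below 0 and the median log2 fold change was -0.09. Of 6 plasma cell markers, 1 was called higher, while 3 lay below 0 and the median was -0.34. The plasma cell markers summed to 286.5 to 712.7 CPM in femur libraries and 251.2 to 387.8 CPM in mandible libraries. By edgeR 0 of 8 T and NK cell markers and 0 of 12 monocyte markers were called, with 1 and 2 of them at an unadjusted p under 0.05. Lyz2 and F13a1, the monocyte markers with the most counts, had -0.32 ± 0.45 and 0.21 ± 0.41, the latter below 0 without S19 and with the length trend removed. The part of cell composition in the histone difference was not tested.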

How the data were processed

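Bulk RNA was measured in 6 libraries, 3 of each skeletal site, grouped by their titles. The deposited values are raw counts per gene and library, without normalization. Per the study's methods and the submitters' processing notes, the authors trimmed paired-end reads of 50 bases, mapped them with HISAT2 2.1.0 to a genome named as GRCm38 and counted them with featureCounts. The use of strand and of reads with several positions is not given in the sources used here, so counts of near-identical or overlapping genes are uncertain. The table's intervals lay inside the GENCODE M21 gene for 0 of the 67 members, so positions and stem-loops came from M21 by Ensembl identifier.

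The test was the quasi-likelihood test of edgeR 4.0.16 (R 4.3.3) with TMM scaling, a prior count of 0.125 and no covariates, checked on simulated data. Genes entered by filterByExpr, set to at least 10 counts and a total of at least 15, which kept 18114. P-values were adjusted by Benjamini-Hochberg over all tested genes. The standard error is the absolute log2 fold change over the square root of F. Class and list sums use all members. The limit that a count of 0 sets, 3 counts, was 0.133 to 0.172 CPM by library and covers counting error only. Alternatives used DESeq2 1.42.0, limma 3.58.1 and a loess length trend with a span of 0.4.

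The members and lists were chosen with earlier results of these data known. Named members were, per class, the 3 with the most counts and those with the highest and lowest fold change among those with at least 1 CPM, and the 8 largest fold changes among called members. For the other lists the rule took the 2 with the most counts and up to 2 called. H1f1, H1f5, H2ac7, H2bc7, H3c8, H4c16, Cdk2, H3f3a, H1f0, H2ax, Cenpa, Npat, Zfp473, Lsm1, Lsm10, H2bc21 and Vaultrc5 were added after their values were seen, as were the 3 members that were not tested. 2 of the promoter windows, those of H1f3 and one of H2bc6, began over 1000 bases from the M21 start.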

Additional observations from a re-analysis of the deposited data

How the results depend on the processing

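The class sums were recomputed with other scaling factors, without ribosomal RNA genes and with each library left out, and kept their direction in these. No class sum is given with the length trend removed. The median over the members lay below that of all genes in every alternative run. The 52 calls became 16 with the length trend removed, with a median of -1.118, and 49 to 59 under the other settings on all libraries, which were DESeq2, limma-voom, RLE, no normalization factors, no ribosomal RNA genes, every gene with a count, a mean CPM of at least 1 and no fold threshold. Leaving out 1 library gave 13 to 59 calls, and 11 members were called in all 6 of these fits. Without a library its group has 2 and the spread is pooled over both groups. The calls over the replication-independent histones and the expression, chaperone, replication and mitosis lists and RNAs without a poly(A) tail numbered 7, and they were 11 in DESeq2, 2 without normalization factors, 19 with every gene tested, and 0 to 21 with 1 library left out, at 0 for each library but S15. Over all genes, 74.8% of calls were higher, against 64.1% with every gene tested, 61.2% without S15, 87.8% without S13, 85.1% without S16 and 86.6% without S19.

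The following log2 fold changes changed sign, and of these genes only Slc4a1, through S13 alone, had a value over 2 times its error with all libraries. H1f6 was -0.9217 in limma-voom and -2.144 to 0.8835 with 1 library left out, the first without S23. Ltf was 0.09986 in limma-voom and -0.8205 to 0.2883 with 1 library left out (0.04368 without S23), and Mki67 was 0.01163 without normalization factors. With the length trend removed H2bc1 was 0.6186, Macroh2a1 -0.3098, Tut7 -0.5973, Atrx -0.5931 and F13a1 -0.15. With 1 library left out, Mcm3 ran from -0.4644 to 0.132 (0.001151 without S13), Slc4a1 from -2.152 to 0.03963, Macroh2a1 from -0.1507 to 0.2312 (-0.05027 without S15), Tut7 from -0.007513 to 0.2038 and F13a1 from -0.04892 to 0.4647. The causes were not tested. No paired analysis was possible because the groups share no replicate number. The number of libraries, 3 per group, limits the precision of all values, and depth that of members with few counts, such as H1f6 and H2bc1.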
